A study of Mus musculus with 2 samples.

Results

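Collagen chains and the enzymes that process them were examined in a pair of mouse testis-derived cell lines. The 25 chains and 17 processing genes, 42 in all, were chosen by symbol for their known role, with earlier results of these data known. Of these, 41 had at least 1 tag, out of 14450 genes with a tag, and Col4a3 was listed at 0 in both libraries. GC-1spg was derived from type B spermatogonia of a 10-day-old mouse transformed with pSV3-neo, and its label puts it on the way from these cells to primary spermatocytes. GC-2spd (ts) was derived from spermatocytes of a 6-week-old mouse transformed with SV40 large T antigen, and the labels place it at a premeiotic stage. Both lines were grown in DMEM supplemented with FBS (10%) and sodium bicarbonate (1.5 g/L), and the RNA had a mean integrity number of 8.9. Each line is an immortalized culture that carries a viral oncogene and was measured in 1 library, so every difference below is between 2 libraries and has no replicate check.

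Collagens are secreted proteins whose chains wind around each other into a helix. Before secretion, prolines and lysines of the chains are hydroxylated in the endoplasmic reticulum and the chaperone Serpinh1 binds the folded helix. After secretion, proteases trim the ends of the fibril-forming chains and lysyl oxidases cross-link them into fibres, while other collagens form networks in basement membranes or beaded filaments. In the testis, collagen is laid down mainly around the tubules, by peritubular and Sertoli cells rather than germ cells.

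Levels came from digital gene expression (DGE) tag profiling, in which NlaIII cuts cDNA at CATG and the 17 bases after a CATG site are sequenced from each polyadenylated transcript. One molecule gives at most 1 tag before amplification, so a count does not grow with transcript length. Levels of different genes are set side by side on this basis, but they are not exact numbers of molecules. They leave out tags shared with other genes, a part that differs from gene to gene. Copies made by PCR are counted too, since tags carry no molecular identifiers. A level is given in TPM, copies of a gene's own sense-strand tags per 1000000 clean tags. The libraries held 5072149 clean tags for GC-1spg and 4726808 for GC-2spd (ts), so that 1 copy is 0.197 and 0.212 TPM, and tags seen once had been removed. Ratios are log2 of TPM in GC-2spd (ts) over GC-1spg with an exact 95% interval, which covers counting error only. A gene was called higher or lower in GC-2spd (ts) at a false discovery rate of at most 0.001 over all genes in the Audic-Claverie test and a ratio of at least 1 on the log2 scale. The test compares these 2 libraries, not the cell types, and fewer cells of a kind and less RNA per cell cannot be told apart.

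The tags of the germ lineage were nearly missing from both libraries, against the labels. Of 17 germ cell markers, 15 had no tag in either library, among them Ddx4, Dazl, Kit, Stra8, Sycp3 and Zbtb16. Spo11 had 2 copies in GC-1spg against Tdrd1 had 4 copies in GC-2spd (ts). The 8 fibroblast markers with a tag, of 11, summed to 1217 TPM in GC-1spg against 1908 TPM in GC-2spd (ts), with Thy1, Lum and Fap at 0 in both. Most of that sum was S100a4 (3873 and 4784 copies, not called). Of the 8, 4 were called higher: Vim (984 and 2897 copies), Prrx1 (145 and 436), Fbn1 (26 and 375) and Pdgfrb (0 and 84). Dcn went the other way, called lower with 710 and 2 copies. All 6 mesothelial markers were listed, and their sum was 1352 TPM in GC-1spg against 33.4 TPM in GC-2spd (ts). The leading ones were Krt19 (2666 and 26 copies), Upk3b (2187 and 0), Msln (1310 and 132) and Wt1 (620 and 0), all called lower. The fibroblast and mesothelial lists differed between the same 2 libraries as the collagen genes, and their part in the collagen differences was not tested.

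The tags below are, for the members on which the results turn, the tag with the most copies over both libraries together, and they are the sequences that were counted. Each is written 5′ to 3′ on the strand of the gene, with the NlaIII site in capitals and its position on the mouse genome GRCm38.
Col1a1 (chr11:94951739-94951759, plus strand, 3′ UTR, exon 51): CATGgactttggaaaacattt
Col1a2 (chr6:4541408-4541428, plus strand, 3′ UTR, exon 52): CATGgttccaaagaagtcttg
Col3a1 (chr1:45348788-45348808, plus strand, 3′ UTR, exon 51): CATGtgttcatcttgttttaa
Col5a2 (chr1:45376070-45376090, minus strand, coding sequence, exon 54): CATGtaacagaagcccagaca
Col27a1 (chr4:63334587-63334607, plus strand, 3′ UTR, exon 61): CATGccacctaaacaagtcag
Col6a1 (chr10:76708842-76708862, minus strand, 3′ UTR, exon 35): CATGgctcccccacattcccc
Col6a2 (chr10:76595775-76595795, minus strand, 3′ UTR, exon 28): CATGcccaatggcccaataaa
Col6a3 (chr1:90767128-90767148, minus strand, 3′ UTR, exon 41): CATGgtcccagttttctggat
Col8a1 (chr16:57624331-57624351, minus strand, 3′ UTR, exon 4): CATGaatagatttgagactga
Col15a1 (chr4:47313135-47313155, plus strand, 3′ UTR, exon 40): CATGtaagaacataaagacat
Serpinh1 (chr7:99345545-99345565, minus strand, 3′ UTR, exon 5): CATGaacttttgtttttctcc
Plod3 (chr5:136996447-136996467, plus strand, 3′ UTR, exon 19): CATGgactcagggaaagtgga
Adamts2 (chr11:50803895-50803915, plus strand, coding sequence, exon 22): CATGgtgtggatgaagaggtc
Loxl1 (chr9:58288677-58288697, minus strand, 3′ UTR, exon 7): CATGgtgtctgttgttggttc
Over the 41 members with a tag, the most copied tag lay in the 3′ UTR for 37 and in coding sequence for 4, and it matched the reference exactly for 40. It was the complete CATG site nearest the 3′ end of the longest coding transcript for 24 of them.

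The processing genes were mostly higher in GC-2spd (ts), while the chains went both ways. Of the 41 members, which were chosen with earlier results of these data known, 16 were called higher, or 39.0%, where 11.7% of all genes were. The 5 called lower were Col1a1, Col6a1, Col6a2, Col11a1 and Col27a1, or 12.2%, where 7.84% of all genes were. All 5 were chains, and the 16 were 6 of the 24 chains with a tag and 10 of the 17 processing genes. The median log2 ratio over genes listed in both libraries was 0.10 for 19 chains, 1.22 for the 17 processing genes and 0.16 for all 11373 such genes. Deeply counted genes are called more often, and of the genes with 100 or more tags in all, 16 of 28 members were called in either direction, where 25.3% of 7100 genes were, and 19.5% of genes at any depth. TMM scaling, which moves the log2 ratio of genes listed in both libraries by −0.17, called 15 members higher and 7 lower, and turned the share of higher genes among all called genes from 59.8% to 47.2%.

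**Figure D1:**
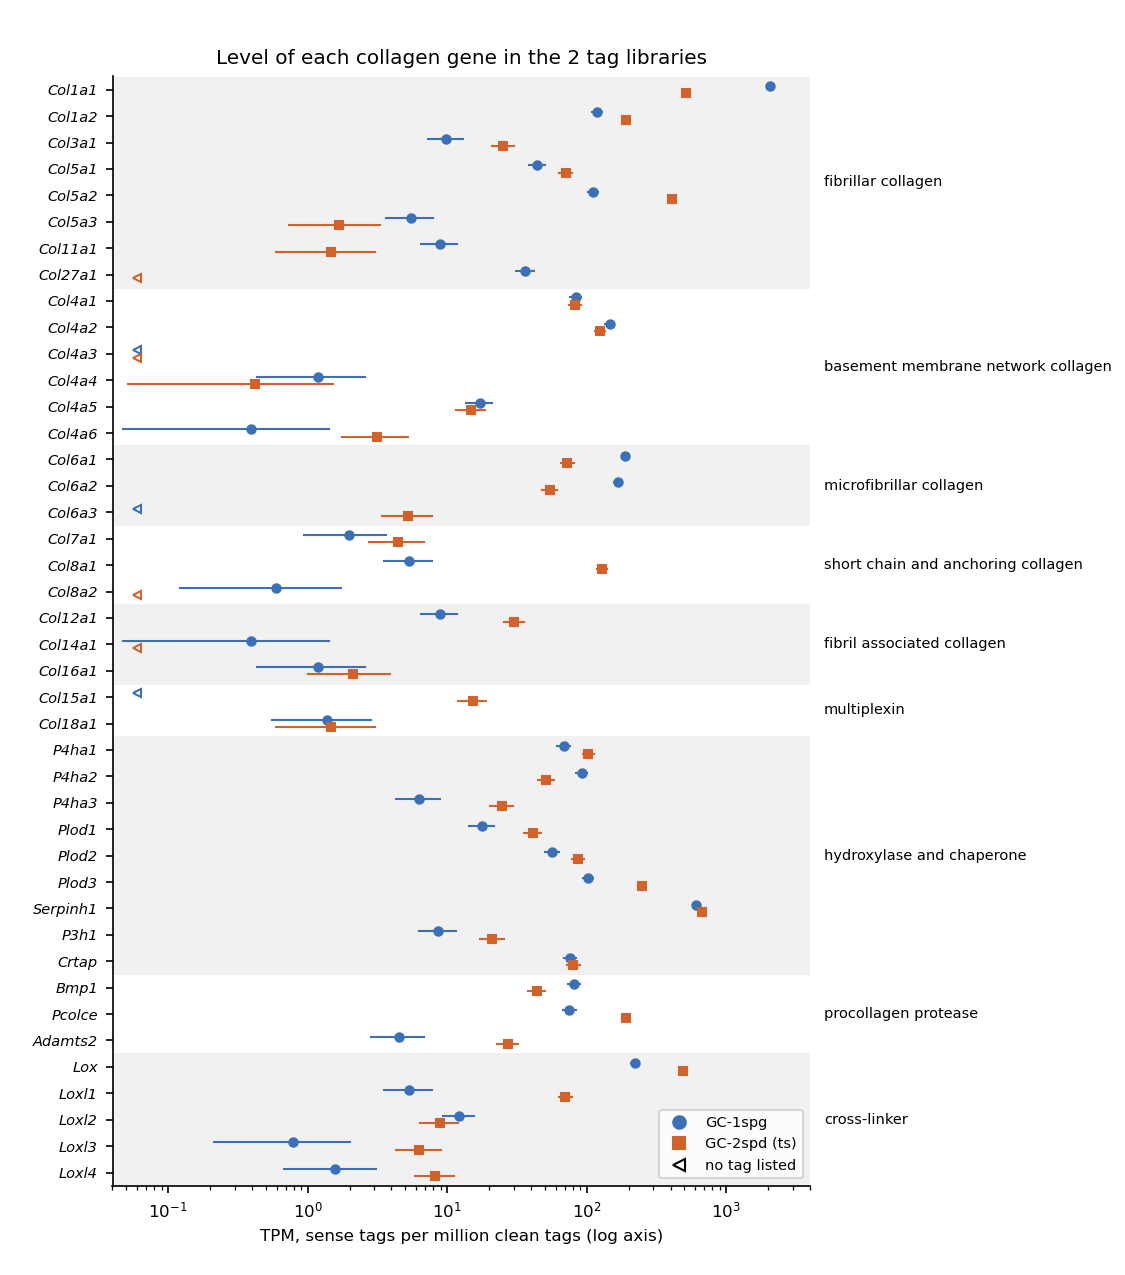
Level of each of the 42 genes in TPM on a log axis, grouped by role, in GC-1spg (circles) and GC-2spd (ts) (squares). Bars are exact 95% Poisson intervals, which cover counting error only, and open triangles at the left edge mark a gene with no tag in that library. Col1a1 stands far to the right in GC-1spg at 2063 TPM, and the squares of the cross-linkers lie to the right of the circles for all but Loxl2.

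Type I collagen, the main fibril former of connective tissue, showed the largest difference in copies among the members. Col1a1, its alpha 1 chain, had 10465 copies in GC-1spg against 2425 in GC-2spd (ts), or 2063 and 513 TPM. It ranked 14th of all genes in GC-1spg against 113th in GC-2spd (ts), and was called lower by 4.02-fold, a log2 ratio of −2.01 (interval −2.07 to −1.94). Col1a2, the alpha 2 chain of the same protein, had 605 and 907 copies, or 119 and 192 TPM, and its log2 ratio of 0.69 (interval 0.54 to 0.84) lay above 0 but under the threshold for a call. The chains of one protein therefore differed in opposite directions. GC-1spg held 17.3 copies of Col1a1 per copy of Col1a2 (interval 15.9 to 18.8), and GC-2spd (ts) held 2.67 (interval 2.48 to 2.89). The Col1a1 value rests on the printed tag, which held 94.6% of the gene's copies in GC-1spg against 92.2% in GC-2spd (ts) and starts 1304 bases from the annotated 3′ end. With only tags at the last complete CATG site of any transcript of the gene, Col1a1 had 43 and 18 copies and was not called. Its log2 ratio there was −1.15. Of those copies, 21 and 9 lay at the site nearest the 3′ end of the longest coding transcript.

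Each of the type V and type III chains, which are built into type I fibrils or set their width, was called higher or not called. Col5a2 of type V collagen had 562 copies in GC-1spg against 1931 in GC-2spd (ts), or 111 and 409 TPM, and was called higher by 3.69-fold (log2 1.88, interval 1.75 to 2.02). Its partner Col5a1 had 225 and 335 copies, with a log2 ratio of 0.68 (interval 0.43 to 0.93), and was not called. The number of Col5a1 copies per Col5a2 copy was 0.4004 in GC-1spg (interval 0.341 to 0.468) and 0.173 in GC-2spd (ts) (interval 0.154 to 0.195). The ratio of these 2 transcripts therefore differed as well, while their proteins were not measured. Col5a3, the rarer alpha 3 chain, had 28 and 8 copies and was not called. Col3a1, the chain of the pliable fibrils of soft tissue, was called higher with 50 copies in GC-1spg against 120 in GC-2spd (ts), 9.86 and 25.4 TPM (log2 1.36, interval 0.88 to 1.87). Its copies came mainly from the site printed above, 919 bases from the annotated 3′ end, where the log2 ratio was 1.69 (interval 1.11 to 2.29). Another 13 and 15 copies came from tags of a noncoding transcript of the gene that end in a run of adenines. The nearest site held 3 copies in each library. Col3a1 and Col5a2, both higher, are neighbours on chromosome 1, facing each other with 24614 bases and no protein-coding gene between them.

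The other fibrillar chains, best known from cartilage, were lower in GC-2spd (ts). Col27a1 had 185 copies, 36.5 TPM, in GC-1spg against no tag in GC-2spd (ts). Its copies came from 2 neighbouring sites of the last exon, with 131 and 54 copies, and both were empty in GC-2spd (ts). The one-sided 95% limit that a count of 0 allows when tags seen once are removed was 6.30 copies for a gene with 2 tags. At that limit the level in GC-2spd (ts) would be 27.4-fold lower, with the counting error of the 185 copies left out. Col11a1 had 45 and 7 copies and was called lower by 5.99-fold (log2 −2.58, interval −3.98 to −1.42). Without Col1a1, the fibrillar chains summed to 16.2 copies per 100 copies of Col1a1 in GC-1spg (interval 15.4 to 17.1) and to 136 in GC-2spd (ts) (interval 129 to 144).

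**Figure D2:**
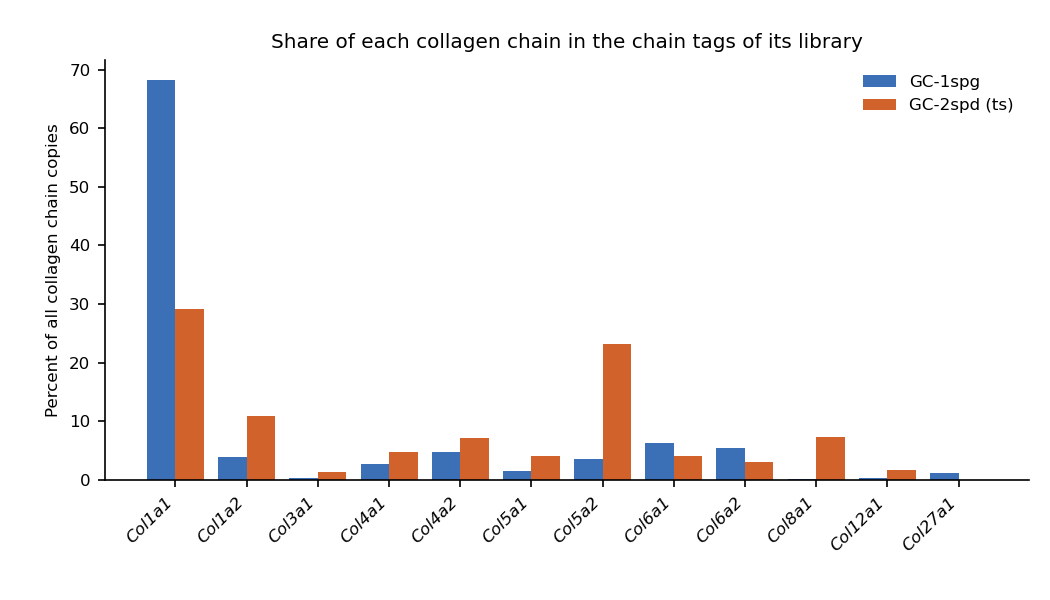
Share of each collagen chain in all chain copies of its library, in percent, for the 12 chains above 1% in either library, with GC-1spg in blue and GC-2spd (ts) in orange; there is 1 library per bar and no error bar. Col1a1 made up 68.2% of the chain copies of GC-1spg and 29.2% of those of GC-2spd (ts), where Col5a2 reached 23.3%.

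Over all 25 chains the sum was 3024 TPM in GC-1spg against 1756 TPM in GC-2spd (ts), 1.72-fold lower in the latter. That direction came from Col1a1: the other 24 chains summed to 961 and 1242 TPM, 1.29-fold higher in GC-2spd (ts) (log2 0.37, interval 0.32 to 0.43). Col8a1 took 0.176% of the chain copies in GC-1spg against 7.39% in GC-2spd (ts).

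The chains of type IV collagen, the network of basement membranes, gave no call. Col4a2 had 743 copies in GC-1spg against 592 in GC-2spd (ts), or 146 and 125 TPM, with a log2 ratio of −0.23 (interval −0.38 to −0.07). Col4a1, with which it forms the most widespread network, had 424 and 393 copies and a log2 ratio of −0.01 (interval −0.21 to 0.19). Their ratio to each other overlapped between the libraries, at 0.571 Col4a1 copies per Col4a2 copy in GC-1spg (interval 0.505 to 0.644) and 0.664 in GC-2spd (ts) (interval 0.583 to 0.755). These genes lie head to head on chromosome 8 on opposite strands. The chains Col4a3 to Col4a6, which replace them in specialised membranes such as those of the kidney, were rare. Col4a5 had 87 and 70 copies (log2 −0.21, interval −0.69 to 0.26) and Col4a4 had 6 and 2. Col4a6, the neighbour of Col4a5 on the X chromosome 1308 bases away, had 2 copies in GC-1spg against 15 in GC-2spd (ts), which did not pass the threshold, and would have been called with only the nearest site (0 and 15 copies) or with antisense tags added (2 and 51).

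Type VI collagen forms beaded microfilaments around cells, and its chains differed among themselves. Col6a1 had 965 copies in GC-1spg against 345 in GC-2spd (ts), 190 and 73.0 TPM, and was called lower by 2.61-fold (log2 −1.38, interval −1.56 to −1.20). Col6a2 had 848 and 257 copies, 167 and 54.4 TPM, and was called lower by 3.07-fold (log2 −1.62, interval −1.83 to −1.42). The 2 genes follow each other on the same strand of chromosome 10, and their ratio, 1.14 Col6a1 copies per Col6a2 copy in GC-1spg (interval 1.04 to 1.25) and 1.34 in GC-2spd (ts) (interval 1.14 to 1.58), overlapped between the libraries. Col6a3, the long chain of the same filaments, was listed only in GC-2spd (ts), with 25 copies or 5.29 TPM, and was called higher. Against the limit for its 0 in GC-1spg this was 4.26-fold, with the counting error of the 25 copies left out. Its tags are not in the longest transcript of the gene, so it had no tag with that transcript alone. In neither library did it come near the other chains: the limit for its 0 in GC-1spg was 6.30 copies against 965 for Col6a1.

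Among chains of other kinds, Col8a1 had the largest ratio of any member listed in both libraries. Col8a1, a short chain that forms sheets under vessel and corneal endothelium, had 27 copies in GC-1spg against 613 in GC-2spd (ts), or 5.32 and 130 TPM, and was called 24.4-fold higher (log2 4.61, interval 4.05 to 5.22). The difference was seen at each of its 3 main sites, with 9 and 355, 7 and 122, and 8 and 102 copies. Its partner Col8a2 had 3 copies in GC-1spg against none in GC-2spd (ts), too few for a ratio. Col15a1, a multiplexin that bridges fibrils at the edge of basement membranes, was listed only in GC-2spd (ts), with 72 copies or 15.2 TPM. It was called higher, by 12.3-fold against the limit for its 0 in GC-1spg, with the counting error of the 72 copies left out. The related Col18a1, the source of endostatin, had 7 copies in each library. Col12a1, which decorates the surface of type I fibrils, had 45 and 143 copies, 8.87 and 30.3 TPM, and was called higher (log2 1.77, interval 1.28 to 2.29). With its antisense tags added it had 292 and 371 copies and was not called. Col14a1, of the same family, had 2 copies in GC-1spg against 0 in GC-2spd (ts), Col16a1 had 6 and 10, and Col7a1, the anchoring fibril of skin, had 10 and 21; none of these was called.

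**Figure D3:**
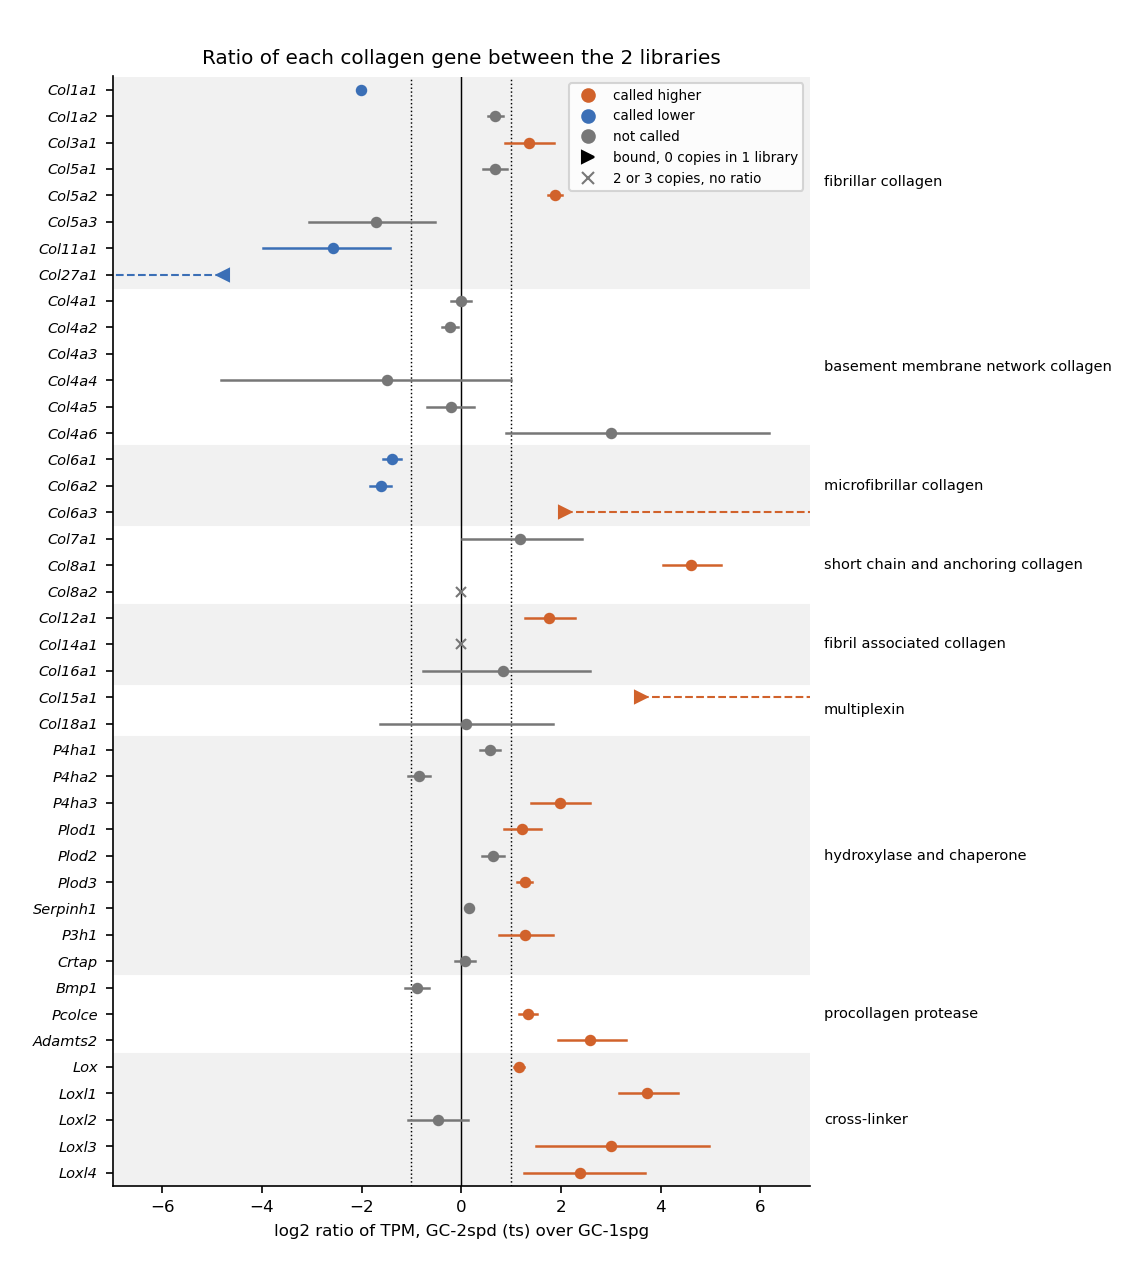
Log2 ratio of TPM in GC-2spd (ts) over GC-1spg for each gene, grouped by role. Bars are exact 95% intervals for counting error, dotted lines mark the threshold of 1 in either direction, triangles with dashed lines mark the bound of a gene with 0 copies in 1 library, crosses at 0 mark Col8a2 and Col14a1, for which no ratio is given, and Col4a3 has no tag. The bounds leave out the counting error of the listed count. The called processing genes all lie to the right, and the called chains lie on both sides.

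Of the 9 hydroxylases and chaperones, 4 were called higher, where 11.7% of all genes were, and none lower. Plod3, a lysyl hydroxylase that also adds glucose to hydroxylysine, had 519 copies in GC-1spg against 1173 in GC-2spd (ts), 102 and 248 TPM (log2 1.28, interval 1.13 to 1.43). Plod1, which hydroxylates lysines of the helix, had 90 and 195 copies (log2 1.22, interval 0.85 to 1.59). It was not called with only the last site of any of its transcripts (7 and 16 copies). Nor was it called with only the longest transcript (0 and 2). Plod2, which acts on the ends of the chains, had 286 and 412 copies, with a log2 ratio of 0.63 (interval 0.41 to 0.85) under the threshold. The Plod genes together went from 176 TPM in GC-1spg to 377 TPM in GC-2spd (ts).

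The catalytic subunits of prolyl 4-hydroxylase, whose product keeps the helix stable at body temperature, shifted among themselves. P4ha1 had 349 and 486 copies (log2 0.58, interval 0.38 to 0.78), P4ha2 had 469 and 243 (log2 −0.85, interval −1.08 to −0.62), and neither was called. P4ha3 was called higher with 32 and 117 copies (log2 1.97, interval 1.40 to 2.58). GC-1spg held 0.744 copies of P4ha1 per copy of P4ha2 (interval 0.646 to 0.857) and GC-2spd (ts) held 2.0 (interval 1.71 to 2.34), while the sum of the 3 genes was 168 and 179 TPM, with an interval of the log2 ratio from −0.04 to 0.23. P3h1, which hydroxylates a proline of type I collagen at its 3-position, had 44 and 100 copies and was called higher (log2 1.29, interval 0.76 to 1.83). Crtap, its partner in the same complex, had 388 and 381 copies (log2 0.08, interval −0.13 to 0.28).

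Serpinh1, the collagen chaperone also called Hsp47, was the most abundant processing gene among the members in both libraries. It had 3066 copies in GC-1spg against 3204 in GC-2spd (ts), 604 and 678 TPM. Its log2 ratio was 0.17 (interval 0.09 to 0.24), and it was not called. Under TMM scaling its sign turned, as did those of Crtap and Col18a1. Per 100 copies of all chains there were 19.99 copies of Serpinh1 in GC-1spg (interval 19.2 to 20.8) and 38.6 in GC-2spd (ts) (interval 37.1 to 40.2). That direction came from Col1a1: per 100 copies of the other 24 chains there were 62.9 (interval 60.1 to 65.8) and 54.6 (interval 52.2 to 57.0).

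Of the genes that trim procollagen, 2 of 3 were called higher, where 11.7% of all genes were. Pcolce, a secreted enhancer of the protease that removes the C-terminal propeptide, had 383 and 904 copies, 75.5 and 191 TPM (log2 1.34, interval 1.17 to 1.52). Adamts2, which removes the N-terminal propeptide, had 23 and 129 copies, 4.53 and 27.3 TPM, 6.02-fold higher (log2 2.59, interval 1.94 to 3.30). Bmp1, the C-terminal protease itself, went the other way with 413 and 208 copies (log2 −0.89, interval −1.14 to −0.64) and was not called, whereas under TMM scaling it was called lower, at −1.06. The protease and its enhancer therefore differed in opposite directions.

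Of the 5 lysyl oxidases, the enzymes that start the cross-links of collagen and elastin, 4 were called higher, where 11.7% of all genes were. Lox had 1122 copies in GC-1spg against 2324 in GC-2spd (ts), 221 and 492 TPM (log2 1.15, interval 1.05 to 1.26), and fell just under the threshold with TMM scaling, at 0.98. Loxl1, which is best known for cross-linking elastin, had 27 and 333 copies, 5.32 and 70.4 TPM, 13.2-fold higher (log2 3.73, interval 3.16 to 4.35). The excess of Loxl1 was seen at both its main sites, with 19 and 254 copies at the printed tag and 8 and 74 at the site nearest the 3′ end. Loxl3 had 4 and 30 copies (log2 3.01, interval 1.50 to 4.97) and Loxl4 had 8 and 39 (log2 2.39, interval 1.27 to 3.70). Loxl2 had 62 and 42 copies, with a log2 ratio of −0.46 (interval −1.06 to 0.13), while 19722 and 11271 copies of sense tags that other genes carry too were not counted, so its level rests on a small part of the tags that match it. As a group the lysyl oxidases summed to 241 TPM in GC-1spg against 586 TPM in GC-2spd (ts), 2.43-fold higher, and the ratio of Lox to Loxl1 copies went from 41.6 (interval 28.4 to 63.3) to 6.98 (interval 6.22 to 7.85).

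Set against the chains, the processing genes together had 47.5 copies per 100 chain copies in GC-1spg (interval 46.2 to 48.8) and 124 in GC-2spd (ts) (interval 121 to 128). Most of that difference lay in Col1a1, and per 100 copies of the other chains the values were 149 (interval 144 to 155) and 176 (interval 170 to 181). The sum of the processing genes among the members was 1436 TPM in GC-1spg against 2183 TPM in GC-2spd (ts), 1.52-fold higher (log2 0.60, interval 0.56 to 0.65). Enzymes, chaperones and carriers outside the members, 15 with a tag, went the other way. They summed to 1269 TPM in GC-1spg against 1071 TPM in GC-2spd (ts) (log2 −0.24, interval −0.30 to −0.19). The values per chain copy therefore hold for the listed members only. The lysyl oxidases alone had 7.97 copies per 100 chain copies in GC-1spg against 33.4 in GC-2spd (ts), and 25.1 and 47.1 per 100 copies of the chains without Col1a1.

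Several genes were tagged at more than 1 site, and the sites were not always used alike. Col5a1 had 57.8% of its copies at the site nearest the 3′ end in GC-1spg (interval 51.0 to 64.3) and 38.2% in GC-2spd (ts) (interval 33.0 to 43.6). At that site it had 130 and 128 copies, and at a site 2293 bases from the 3′ end it had 81 and 163 copies, so the excess in GC-2spd (ts) lay at the far site. For Col4a1 the nearest site took 64.4% of copies in GC-1spg (interval 59.6 to 68.9) and 74.0% in GC-2spd (ts) (interval 69.4 to 78.3). Adamts2 had 8 and 82 copies at a coding site 3679 bases from the 3′ end, and 11 and 27 at the last site of a noncoding transcript of the gene. For Col5a2, as for Col1a1, 1 site held most copies in both libraries, 90.2% and 84.8%.

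**Figure D4:**
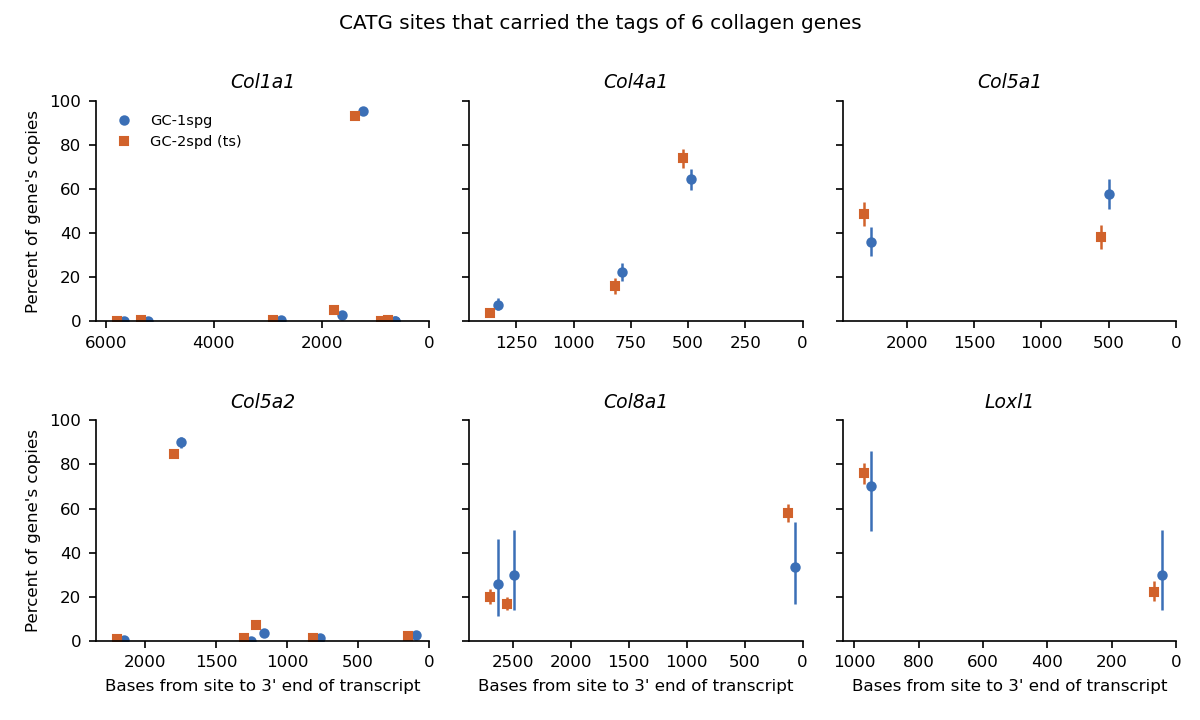
Percent of a gene's copies at each CATG site with at least 20 copies over both libraries, by distance of the site from the 3′ end of the longest coding transcript in bases, for 6 genes; circles are GC-1spg and squares GC-2spd (ts), drawn slightly apart, with exact 95% binomial intervals for counting error. The order of the 2 Col5a1 sites is turned around between the libraries, while Col1a1 keeps 1 main site at 1304 bases.

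Of 49 other genes of collagen assembly and binding, 25 had a tag, of which 4 (16%) were called higher and 2 (8%) lower, near the 11.7% and 7.84% of all genes. Among 19 further chains only Col9a3, Col11a2 and Col20a1 had a tag, none with more than 9 copies in a library. P4hb, the beta subunit shared by the prolyl 4-hydroxylases, was the most abundant of the list, with 4022 copies in GC-1spg against 2322 in GC-2spd (ts) and a log2 ratio of −0.69 (interval −0.77 to −0.62), and was not called. The 3 called higher among the enzymes, chaperones and carriers were Pcolce2, a second procollagen protease enhancer, with 45 and 239 copies, Creb3l1, a transcription factor of the secretory pathway, with 19 and 160, and Fkbp14, a prolyl isomerase, with 33 and 71. P3h4, a partner of the lysyl hydroxylases, was called lower, with 379 and 150 copies. Of the collagen receptors, Itgb1, the integrin beta 1 subunit, was called higher (929 and 2194 copies). The integrin alpha subunits of the list had few copies or none, and none was called. Itga10 had 9 and 18 copies, Itga2 3 and 0, Itga1 2 and 0, and Itga11 0 and 0. Ddr1, a receptor tyrosine kinase that binds collagen, was called lower (448 and 197 copies). Its relative Ddr2 had 185 and 191 copies.

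The spread between cultures of a line is unknown, and the number of calls depended on what was assumed for it. With edgeR's exact test and a preset biological coefficient of variation of 0.2, 8 of the 21 calls remained: Col1a1, Col5a2, Col6a3, Col8a1, Col15a1, Col27a1, Adamts2 and Loxl1. Of all genes, 6.92% were called at that setting. At 0.4, Col8a1, Col15a1 and Col27a1 remained, where 1.69% of all genes were called. Other marker lists are given as values. The peritubular myoid list, all 6 with a tag, summed to 13.01 and 123 TPM. Most of it was Acta2, with 50 and 555 copies, the only 1 of the list that was called. Des had 11 and 4 copies, Cnn1 5 and 15, Tagln 0 and 3, and Myh11 and Actg2 0 and 2 each. The Sertoli cell list, 6 of 9 with a tag and Cldn11, Rhox5 and Fshr at 0, summed to 196 and 97.3 TPM. There, Clu (902 and 262 copies) and Dhh (24 and 0) were called lower, while Gata4 (29 and 138) was called higher. Sox9 (29 and 46), Inha (4 and 14) and Amh (5 and 0) were not called. Of the Leydig cell list 3 of 7 had a tag, with Cyp17a1, Hsd3b1, Insl3 and Lhcgr at 0 and Nr5a1 at 0 and 188 copies. Only Kdr, at 2 and 4 copies, was listed of 4 endothelial markers and none of 4 macrophage markers. The part of these in the collagen differences was not tested.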

How the data were processed

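One DGE library was made from each cell line. After dropping adaptors, poor reads and tags seen once, the authors deposited for each distinct 21-base tag its copy number (raw counts) and its TPM, the count per 1000000 clean tags. The deposited TPM equalled copies per 1000000 within rounding. Here the counts were used. Tags were matched to GENCODE M21 transcripts (GRCm38) at every CATG site on both strands with at most 1 mismatch, exact matches first, and the sense tags whose best matches lay in 1 gene were summed per gene. Such tags held 54.7% of copies in GC-1spg against 57.9% in GC-2spd (ts). The reference of the study was a UniGene set, not used here. Genes were compared with a two-sided Audic-Claverie test with Benjamini-Hochberg adjustment over all 14450 genes (false discovery rate 0.001, log2 ratio 1, 0.01 TPM in place of 0). The test behind the study's thresholds is given there only by a reference, so this choice is a reading of it. Quasi-likelihood tests need replicates and could not be fitted. Intervals of ratios and shares are exact binomial (Clopper-Pearson) intervals at 95%. They and the limits for a count of 0 cover counting error only, since tags carry no molecular identifiers. A fold against such a limit takes the listed count as it stands, without its own counting error.

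The members, the lists of pathway and marker genes and the rule for named genes (all members, called pathway genes, the leading and missing markers) were chosen with earlier results of these data known. Alternatives are under the processing heading. Tools were Python 3.11.15, scipy 1.17.1, R 4.3.3 and edgeR 4.0.16.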

Additional observations from a re-analysis of the deposited data

Results flagged for a closer look

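Tags outside the counts used above carried signal for the collagen genes, and these values are given without an explanation. Tags antisense to the 42 genes held 3022 copies in GC-1spg against 2475 in GC-2spd (ts), or 13.4 and 13.3 copies per 100 sense copies, where all genes together had 13.9 and 12.2. Col1a2 stood out, with 705 antisense copies in GC-1spg against 900 in GC-2spd (ts), or 117 and 99.2 per 100 sense copies. Most of them came from 1 tag of 551 and 709 copies, at a CATG site where the sense tag had 2 and 6 copies. Col1a1 had 1531 and 622 antisense copies, of which 973 and 482 came from 1 tag whose CATG site lies 18 bases from the annotated 3′ end, too close to it for a complete sense tag. Col4a6 had an antisense tag of 36 copies in GC-2spd (ts) and 0 in GC-1spg. The antisense tags of Col12a1 with the most copies all held at least 8 adenines in a row.

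Tags that match a collagen gene in sense and another gene in antisense were left out of both. For Loxl3, which shares them with Htra2, they held 138 copies in GC-1spg against 408 in GC-2spd (ts), more than its own 4 and 30. For Col16a1, which shares its tag nearest the 3′ end with Aox4, they held 103 copies in GC-1spg against 61 in GC-2spd (ts), the opposite direction to its own 6 and 10. These tags cannot be assigned to a strand's gene from their sequence.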

How the results depend on the processing

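Of 14 alternatives, 9 left the number of called members at 21 and TMM scaling gave 22. The exceptions were the nearest site only and the longest transcript only, at 19 each, and the larger preset variation. Nearest site only means the tags at the last complete CATG site of any transcript of a gene. With a coefficient of variation of 0.2 there were 8 called members (6 higher, 2 lower) and 1000 called genes (511 higher, 489 lower), and with 0.4 there were 3 (2 higher, 1 lower) and 244 (108 higher, 136 lower). TMM scaling moved the log2 ratio of each gene with copies in both by −0.17, so that 47.2% of called genes were higher in place of 59.8%, and members split into 15 higher and 7 lower. Lox was lost there, and P4ha2 (−1.02) and Bmp1 were gained. The nearest site only lost Col1a1, Col3a1 and Plod1 and gained Col4a6, the longest transcript only lost Plod1 and Col6a3 (which had no tag there), and adding antisense tags lost Col12a1 and gained Col4a6. Signs turned for uncalled members: under TMM scaling Col18a1 (−0.072), Serpinh1 (−0.0085) and Crtap (−0.10, and −0.0081 when scaled to unambiguous sense tags), with preferred sense matches and with the longest transcript Col16a1 (−0.52 in each), with the nearest site Col4a1 (0.11) and with the longest transcript P4ha2 (0.39). Causes were not tested, except that the last is counted on 9 and 11 copies. No paired analysis was possible because each line has 1 library, and for the same reason no library could be left out. Depth limits the members with few copies, whose intervals are wide.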
